A study of Mus musculus with 12 samples.

Results

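Heat-shock chaperones were examined in colonic epithelial cells of mice with and without Nfkb2, at rest and after injury by dextran sulfate sodium (DSS). The 10 members, taken by their gene symbols from 46517 genes in the count tables, were Hspa1a, Hspa1b, Hspa8, Hsph1, Dnajb1, Bag3, Hsp90aa1, Hspb1, Hspd1 and Hspe1. The genes were chosen by symbol with earlier results of these samples in view, among them the low Hspa1a counts of untreated knockout cells, so the differences of Hspa1a and of its sum with Hspa1b are given as a description, with no p value. The adjusted p values of the other members come from the fit over all genes and are not independent of that choice either. All animals were C57BL/6 mice of 7 to 9 weeks. The 4 groups, each of 3 biological replicates, were wild-type (WT) mice left untreated, WT mice given DSS for 48 h, Nfkb2-/- mice (knockout, KO) left untreated and Nfkb2-/- mice given DSS for 48 h. Nfkb2 encodes the p100 and p52 proteins of the NF-kB family, and the labels name no restriction of its deletion to a cell type. Epithelial cells were shaken off colon pieces in EDTA without a sort. By flow cytometry, most cells of such preparations carried EpCAM and lacked CD45.2, per the labels.

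Heat-shock proteins keep other proteins folded, refold damaged ones and pass on those that cannot be rescued. Hsp70 proteins such as Hspa1a and Hspa8 bind unfolded stretches, J-domain proteins such as Dnajb1 bring them their clients, and nucleotide exchange factors such as Hsph1 and Bag3 let the clients go. Heat, oxidants and protein damage activate the transcription factor Hsf1, which binds heat-shock elements in the promoters of inducible members, whereas Hspa8 is made all the time.

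The promoters of 8 members were in the RefSeq table of GRCm38.p6 used here, and those of Hspa8 and Hsp90aa1 are named only. The 250 bases before each start were searched for the heat-shock element, in which GAA and TTC units alternate with 2 bases of any kind between them. The 3-unit form (GAA, TTC, GAA or its reverse complement TTC, GAA, TTC) and the 2-unit forms (GAA then TTC, or TTC then GAA, which read the same on both strands) were counted on both strands, and every 3-unit match also holds 2-unit ones. Of 32851 promoter windows of this length, 0.466% held the 3-unit form and 12.8% a 2-unit form. Hspa1a and Hspa1b are shown because their promoters are nearly the same and their counts are not. Dnajb1 is shown because it rose under DSS in both genotypes. The capitals mark matches to either form, and each sequence runs 5′ to 3′ on the gene's strand.
Hspa1a: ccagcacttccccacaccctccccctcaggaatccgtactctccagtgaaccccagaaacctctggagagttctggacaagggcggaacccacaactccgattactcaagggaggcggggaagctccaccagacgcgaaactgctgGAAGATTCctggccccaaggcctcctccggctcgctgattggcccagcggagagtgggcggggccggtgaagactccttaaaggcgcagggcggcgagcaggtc
Hspa1b: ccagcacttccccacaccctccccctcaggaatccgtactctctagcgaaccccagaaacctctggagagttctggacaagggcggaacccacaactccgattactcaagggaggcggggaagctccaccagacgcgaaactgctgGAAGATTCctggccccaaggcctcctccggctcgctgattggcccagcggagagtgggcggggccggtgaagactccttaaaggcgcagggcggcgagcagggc
Dnajb1: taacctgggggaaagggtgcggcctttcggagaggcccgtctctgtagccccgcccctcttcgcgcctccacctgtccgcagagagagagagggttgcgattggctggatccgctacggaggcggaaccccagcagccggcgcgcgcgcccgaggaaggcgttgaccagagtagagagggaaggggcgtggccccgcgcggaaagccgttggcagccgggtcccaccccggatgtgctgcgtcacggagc
The Hspa1a window lies on the minus strand at chr17:34972157-34972406, the Hspa1b window on the minus strand at chr17:34959239-34959488 and the Dnajb1 window on the plus strand at chr8:83607925-83608174. The Hspa1a and Hspa1b windows differed at 3 of 250 bases, C44T, T47C and T249G, with the Hspa1a base first and positions counted from 1 at the 5′ end of the window. Each held a single 2-unit match, which began 104 bases before the start. No match to these letters lay in the Dnajb1 window shown, in a second Dnajb1 window at chr8:83608298-83608547 or in that of Bag3. The second Dnajb1 window lies within the gene as annotated in GENCODE M21, which begins at 83608193. The 2 Hsph1 windows overlap, and the same single site matched in both. Hspb1 had 2.

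Hspd1 and Hspe1, which sit head to head on chromosome 1 with 112 bases of overlap in GENCODE M21, were the only ones of the 8 members searched with the 3-unit form. A second Hspd1 window, at chr1:55088244-55088493, held no match. The element is shown because it lies in the Hspe1 window and in the other Hspd1 window. The stretch shown lies within the Hspd1 gene as annotated in GENCODE M21, and 1 annotated exon reaches into it. It is given on the plus strand at chr1:55088053-55088082 (GRCm38.p6), with 2 overlapping 3-unit matches in capitals.
Hspe1 and Hspd1: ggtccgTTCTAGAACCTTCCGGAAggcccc

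Each sample had 5595909 to 8117740 counted reads, and 15738 to 17120 genes had at least 1. Nfkb2, the targeted gene, had 87 to 143 counts in KO libraries and 211 to 346 counts in WT libraries, in the direction of the labels. All 8 epithelial markers were detected in every group, with summed levels of 21735 to 33096 CPM (read counts relative to the TMM-scaled size of the library). Surface colonocyte markers, 6 genes, summed to 8709 to 9860 CPM in untreated WT, 1839 to 2213 in DSS-treated WT, 5227 to 5713 in untreated KO and 2265 to 2808 in DSS-treated KO, and all 6 fell under DSS in both genotypes. Goblet cell markers, 5 genes, summed to 18367 to 28889, 14217 to 16664, 12701 to 14377 and 25488 to 29802 CPM in that order, and markers of proliferating cells, 5 genes, to 464 to 692, 390 to 434, 625 to 704 and 411 to 438 CPM. Leukocyte markers, 12 genes, summed to 1240 to 1732, 1932 to 2428, 2295 to 2394 and 2109 to 2298 CPM in that order. Most of that sum was Cd74, which had 7399 to 18694 counts in a sample, against at most 297 for any other gene of the list. Of the 9 leukocyte markers tested, 4 rose under DSS in WT and 1 in KO, and 6 were higher in KO than in WT untreated, with a median log2 fold change of 1.70 over the 9, and 4 with DSS. Stromal, endothelial and muscle markers summed to at most 7.43 CPM and erythrocyte markers to at most 0.831 CPM in a sample, with Pdgfra at 0 in all 12 samples. Of the 6 surface colonocyte markers, 1 was higher and 1 lower in untreated KO than in untreated WT, with a median log2 fold change of -0.08. With DSS 4 were higher in KO than in WT (median 0.73). Car1 had 7216 to 52737 counts in a sample, against at most 9570 for any other gene of that list. Markers counted here as higher, lower, risen or fallen had an adjusted edgeR p under 0.05. Over all genes, in either direction, that share was 6.3% for DSS in WT and 3.92% for DSS in KO. Between genotypes it was 3.48% untreated and 3.11% with DSS. The part of the colonocyte, goblet and leukocyte shifts in the differences below was not tested. In these bulk samples fewer cells of a type and less RNA per cell cannot be told apart. Library numbers were lower for all WT than for all KO samples, so library order and genotype cannot be told apart.

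**Figure D1:**
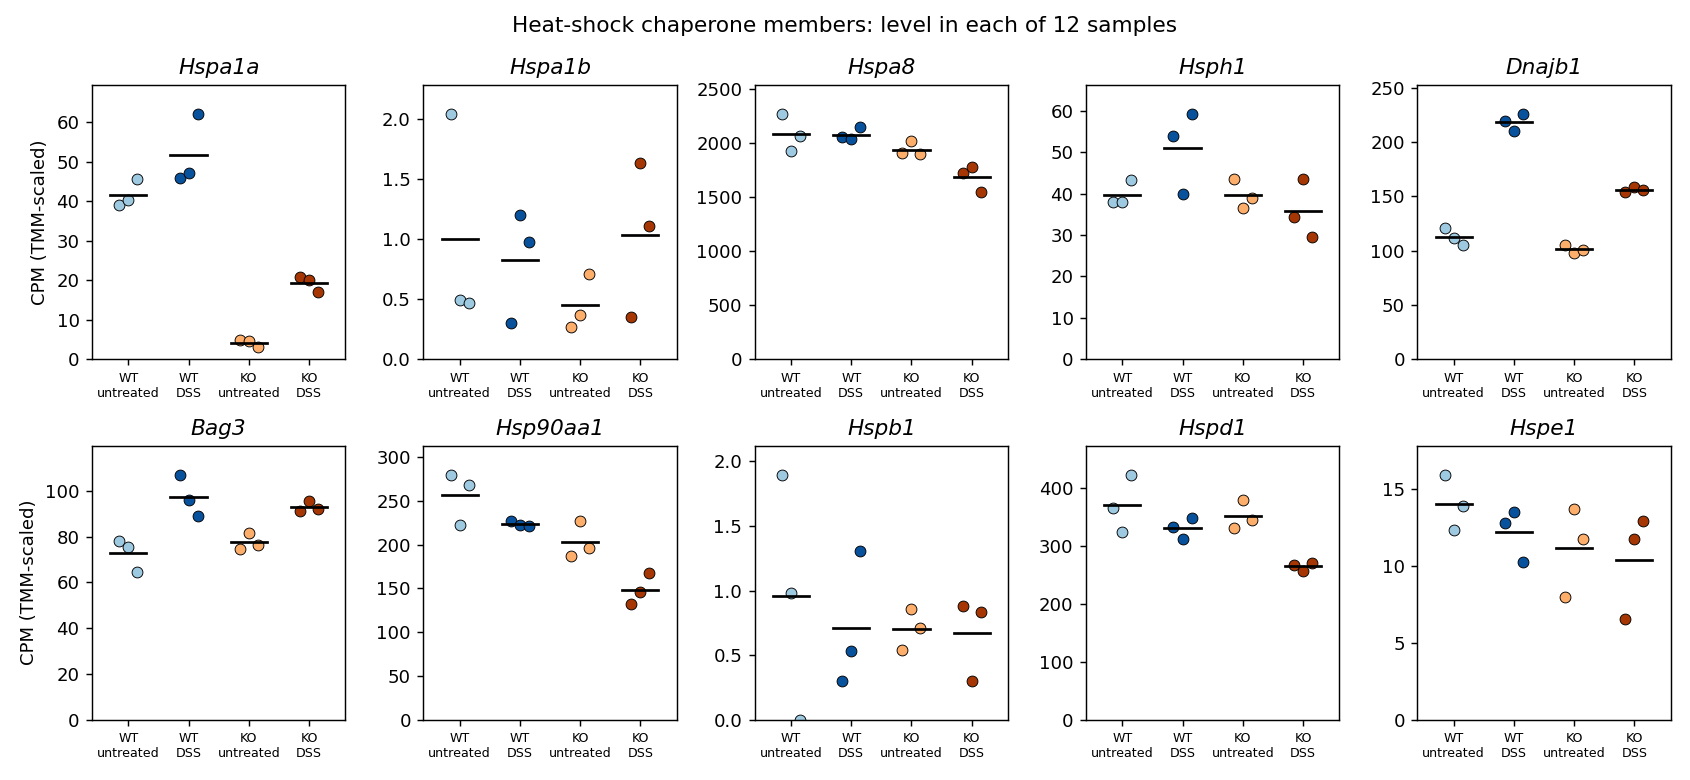
Level of each of the 10 members in each of the 12 samples, in TMM-scaled CPM on linear axes from 0. Points are samples in 4 groups of 3 (WT and Nfkb2 KO, untreated or 48 h DSS) and bars are group means. Hspa1a lay between 3.09 and 4.71 CPM in untreated KO and between 38.9 and 45.6 CPM in untreated WT, and Dnajb1 was higher under DSS in both genotypes.

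Levels of different genes were compared as CPM per kilobase of annotated exon. This scale does not allow for reads that match several genes, whose treatment is not given. Of all words of 50 bases in their transcripts, 66.3% of Hspa1a, 47.5% of Hsp90aa1 and 39.4% of Hspa8 occur in other genes, against 0.412% of Dnajb1. The order of such genes may depend on how those reads were counted. Hspa8, the constitutive Hsp70 of the cytosol, stood first in every group, at 486 ± 39.5 (SD, n = 3) in untreated WT and 392 ± 27.7 in DSS-treated KO. Hspd1, the mitochondrial Hsp60 chaperonin, came next at 140 ± 18.8 in untreated WT. Hsp90aa1, an Hsp90 of the cytosol, stood at 65.3 ± 7.74, Dnajb1 at 35.2 ± 2.35 and Bag3 at 28.4 ± 2.85 in that group. Hspa1a followed at 14.0 ± 1.19, Hspe1, the mitochondrial Hsp10 partner of Hspd1, at 9.52 ± 1.22 and Hsph1, an Hsp110, at 5.47 ± 0.421. Up to Hsph1, no neighbours in this order overlapped between their samples in untreated WT. Hspb1, the small heat-shock protein Hsp27 or Hsp25, and Hspa1b were last, at 0.931 ± 0.919 and 0.356 ± 0.322, and their samples overlapped.

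The order changed at 2 genes. Dnajb1 stood above Hsp90aa1 under DSS in both genotypes, at 68.2 ± 2.43 against 56.8 ± 0.686 CPM per kilobase in WT and 48.8 ± 0.827 against 37.7 ± 4.46 in KO, with no overlap of samples. Untreated, the order was the reverse in both genotypes, and in KO Dnajb1 then overlapped with Bag3. Hspa1a was sixth in WT and eighth in untreated KO, where it was at 1.38 ± 0.299, below Hsph1 at 5.46 ± 0.499. In DSS-treated KO Hspa1a returned to 6.49 ± 0.653, a level that overlapped with both Hspe1 and Hsph1. Hspe1 and Hsph1 overlapped in DSS-treated WT and in untreated KO, and Hsp90aa1 with Bag3 in DSS-treated KO.

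**Figure D2:**
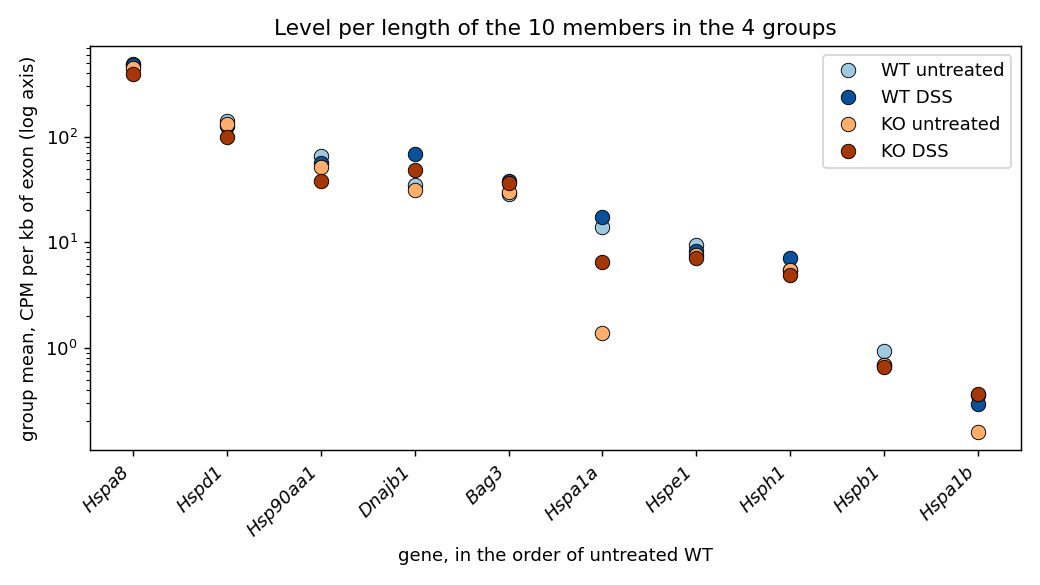
Group mean level of each member in CPM per kilobase of exon, on a log axis, with genes in the order of untreated WT and 1 point per group of 3 samples. Hspa8 lies highest in every group, and the groups part most at Hspa1a, from 1.38 in untreated KO to 17.4 in DSS-treated WT.

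Hspa1a, the main stress-inducible Hsp70, had the widest range, as a ratio of its highest to its lowest sample, of the 8 members that were tested. The gene (ENSMUSG00000091971.3) lies on the minus strand of chromosome 17 from 34969190 to 34972156 (GRCm38). Its level was 38.9, 40.2 and 45.6 CPM in untreated WT and 45.9, 47.1 and 62.0 CPM in DSS-treated WT. In KO it was 4.71, 4.52 and 3.09 CPM untreated and 20.7, 20.02 and 17.04 CPM under DSS. The 3 untreated KO samples were the lowest of the 12, the 3 KO samples under DSS came next, and neither KO group overlapped with any WT sample. Untreated KO cells had 10.1-fold less Hspa1a than untreated WT cells (log2 fold change -3.34, SE 0.21). Under DSS the gap was 2.68-fold (-1.42, SE 0.19).

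Within each genotype Hspa1a stood higher under DSS, with no overlap between the groups. The ratio was 4.68-fold in KO (log2 fold change 2.23, SE 0.21) and 1.24-fold in WT (0.31, SE 0.18, 95% interval from -0.08 to 0.71). The DSS change was larger in KO by 1.91 on the log2 scale (SE 0.28, interval from 1.31 to 2.52). KO cells under DSS thus held 19.2 ± 1.94 CPM (SD, n = 3), still below the 41.6 ± 3.54 CPM of untreated WT. None of these Hspa1a differences changed direction in any alternative setting or with any 1 sample left out.

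Hspa1b encodes nearly the same protein and lies 9951 bases from Hspa1a on the same strand, from 34956436 to 34959238. Only 2 to 14 counts fell on it in a sample, against 26 to 380 on Hspa1a. It was 0.999 ± 0.902 CPM (SD, n = 3) in untreated WT, 0.827 ± 0.467 in DSS-treated WT, 0.449 ± 0.233 in untreated KO and 1.03 ± 0.642 in DSS-treated KO, and the groups overlapped in every comparison. With 3 counts taken as the floor of detection, 0.37 to 0.536 CPM depending on the library, its level is too low to compare. Of the words of 50 bases in Hspa1a transcripts, 58.8% also occur in Hspa1b, and of those in Hspa1b 62.3% occur in Hspa1a, so reads of the shared stretches cannot be assigned to either gene. How such reads were counted is not given in the sources used here.

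The sum of both genes does not depend on that assignment as long as the reads were counted at all. It was 41.0, 40.7 and 46.05 CPM in untreated WT and 46.2, 48.3 and 62.9 CPM in DSS-treated WT. In KO the sum was 4.98, 4.88 and 3.80 CPM untreated and 21.04, 21.6 and 18.2 CPM under DSS. The groups were ordered as for Hspa1a alone, with no overlap. The log2 differences were -3.22 (SE 0.20) between untreated genotypes, -1.37 (SE 0.18) between genotypes under DSS, 2.15 (SE 0.20) for DSS in KO and 0.30 (SE 0.17) for DSS in WT. Gm20481, annotated across Hspa1a on the other strand, had 0 counts in every sample. The strand setting is not given, so this does not show whether Hspa1a lost reads in the overlap.

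Hspa8 is the constitutive partner of the inducible Hsp70 genes. It had 2270, 1932 and 2071 CPM in untreated WT, 2055, 2036 and 2152 in DSS-treated WT, 1907, 2018 and 1905 in untreated KO and 1725, 1780 and 1551 in DSS-treated KO. The KO samples under DSS were the lowest and overlapped with no other group. The difference between genotypes under DSS was -0.30 (SE 0.08), which did not pass over all genes (adjusted edgeR p 0.0620, and 0.0180 to 0.221 under the alternatives, of which 5 passed). DSS changed Hspa8 in WT by -0.01 (SE 0.08), with a 95% interval from -0.18 to 0.17. In KO the change was -0.21 (SE 0.08, adjusted edgeR p 0.218). Of its 50-base words, 39.4% occur in other genes, and Snord14c, Snord14d and Snord14e overlap it on its strand, so its reads are partly unassignable.

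Dnajb1, the J-domain co-chaperone that loads clients onto Hsp70, rose under DSS in both genotypes. It had 121, 112 and 106 CPM in untreated WT and 220, 210 and 226 CPM in DSS-treated WT, 1.94-fold more (log2 fold change 0.96, SE 0.09, adjusted edgeR p 1.29e-05). In KO it went from 105, 98.1 and 100.4 CPM to 154, 159 and 156 CPM, 1.54-fold more (0.63, SE 0.09, adjusted edgeR p 0.00158). Every DSS sample lay above every untreated sample of either genotype. Both rises passed in all 18 alternatives. The DSS change was smaller in KO by 0.33 (SE 0.13, interval from -0.61 to -0.04), and this difference did not pass over all genes (adjusted edgeR p 0.365).

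Between genotypes, Dnajb1 was lower in DSS-treated KO (log2 fold change -0.48, SE 0.09, adjusted edgeR p 0.0104), a call lost without WT replicate 1 or 3 under DSS (adjusted p 0.0587 and 0.0592, against a range from 4.44e-05 to 0.0592 over the alternatives). Untreated, the genotypes differed by -0.16 (SE 0.09, adjusted edgeR p 0.487), although the 3 KO values lay below the 3 WT values. The gene (ENSMUSG00000005483.9) lies on the plus strand of chromosome 8 from 83608193 to 83612653, and 0.412% of its 50-base words occur elsewhere. Dnajb1 and Hspa1a thus differed in where the groups parted. Untreated, Dnajb1 was 113 ± 7.53 CPM in WT and 101 ± 3.58 CPM in KO (SD, n = 3), while Hspa1a was 41.6 ± 3.54 and 4.11 ± 0.886 CPM.

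Bag3 ties Hsp70 to selective autophagy and is an inducible nucleotide exchange factor. It had 78.1, 75.6 and 64.4 CPM in untreated WT and 106.9, 96.01 and 89.2 CPM in DSS-treated WT (log2 fold change 0.42, SE 0.12, adjusted edgeR p 0.0487). The groups did not overlap, but the call was lost in 16 of 18 alternatives, among them each omission of 1 of the 12 samples. Over all 18 alternatives its adjusted edgeR or DESeq2 p ran from 0.0158, with the DESeq2 test, to 0.226. In KO, Bag3 had 74.6, 81.5 and 76.4 CPM untreated and 91.4, 95.8 and 92.2 CPM under DSS, again without overlap (0.26, SE 0.12, adjusted edgeR p 0.285). Genotypes differed by 0.09 (SE 0.12) untreated and by -0.06 (SE 0.12) under DSS, with intervals from -0.16 to 0.34 and from -0.32 to 0.19. No 50-base word of Bag3 or of Hsph1 occurs in another gene.

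Hsph1, an exchange factor of Hsp70 that also holds unfolded proteins, had 38.04, 37.9 and 43.3 CPM in untreated WT and 54.1, 39.9 and 59.2 CPM in DSS-treated WT. In KO it had 43.6, 36.5 and 38.9 CPM untreated and 34.5, 43.4 and 29.5 CPM under DSS. The groups overlapped in all 4 comparisons. No difference passed. The one farthest from 0 was that between genotypes under DSS (log2 fold change -0.51, SE 0.18, adjusted edgeR p 0.185), with an interval from -0.90 to -0.12.

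Hsp90aa1, the stress-responsive Hsp90 isoform, had the lowest values in DSS-treated KO. It had 279, 222 and 268 CPM in untreated WT, 226, 222 and 222 CPM in DSS-treated WT, 187, 227 and 196 CPM in untreated KO and 132, 146 and 167 CPM in DSS-treated KO. Under DSS, KO was lower than WT by 1.51-fold (log2 fold change -0.59, SE 0.12, adjusted edgeR p 0.0143). That call was lost without any 1 of the 3 WT samples under DSS or without KO replicate 1 or 2 under DSS (adjusted p from 0.000547 to 0.0724 over the alternatives). DSS in KO gave a log2 fold change of -0.45 (SE 0.12, adjusted edgeR p 0.0493). With replicate numbers as a block shared by all 4 groups, the adjusted p was 0.0792 (0.0169 to 0.224 over the alternatives). Omission of any untreated KO sample, any WT sample under DSS or KO replicate 1 or 2 under DSS also ended the call for DSS in KO. Untreated KO and WT overlapped (-0.34, SE 0.12, adjusted edgeR p 0.159). Copies elsewhere hold 47.5% of its 50-base words.

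The mitochondrial pair is Hspd1, which forms the folding chamber, and Hspe1, its lid. Hspd1 had 365, 323 and 422 CPM in untreated WT, 333, 311 and 348 in DSS-treated WT, 330, 378 and 345 in untreated KO and 267, 257 and 270 in DSS-treated KO. The KO samples under DSS were the lowest and overlapped with no other group. Their difference from untreated KO was -0.41 in log2 (SE 0.11, adjusted edgeR p 0.0441), and with the replicate block the adjusted p was 0.0566. Leaving out any WT sample under DSS or any KO sample also ended the call (adjusted p from 0.0114 to 0.193 over the alternatives). Between genotypes under DSS the difference was -0.32 (SE 0.11, adjusted edgeR p 0.137).

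Hspe1 had 12.3 to 15.9 CPM in untreated WT, 10.3 to 13.5 in DSS-treated WT, 7.94 to 13.7 in untreated KO and 6.54 to 12.9 in DSS-treated KO. The groups overlapped in every comparison, and no difference passed. The 95% interval for DSS in KO ran from -0.71 to 0.52 in log2, wide enough to hold the change of Hspd1. Per kilobase Hspd1 was at 140 and Hspe1 at 9.52 in untreated WT. Of the 50-base words of Hspd1 42.1% and of Hspe1 22.8% occur in other genes, several of them Hspd1 or Hspe1 pseudogenes, and both counts are uncertain to that extent. Hspb1, which binds unfolding proteins without ATP, had 0 to 13 counts in a sample. Of its words, 50.1% occur in other genes, among them a pseudogene copy.

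**Figure D3:**
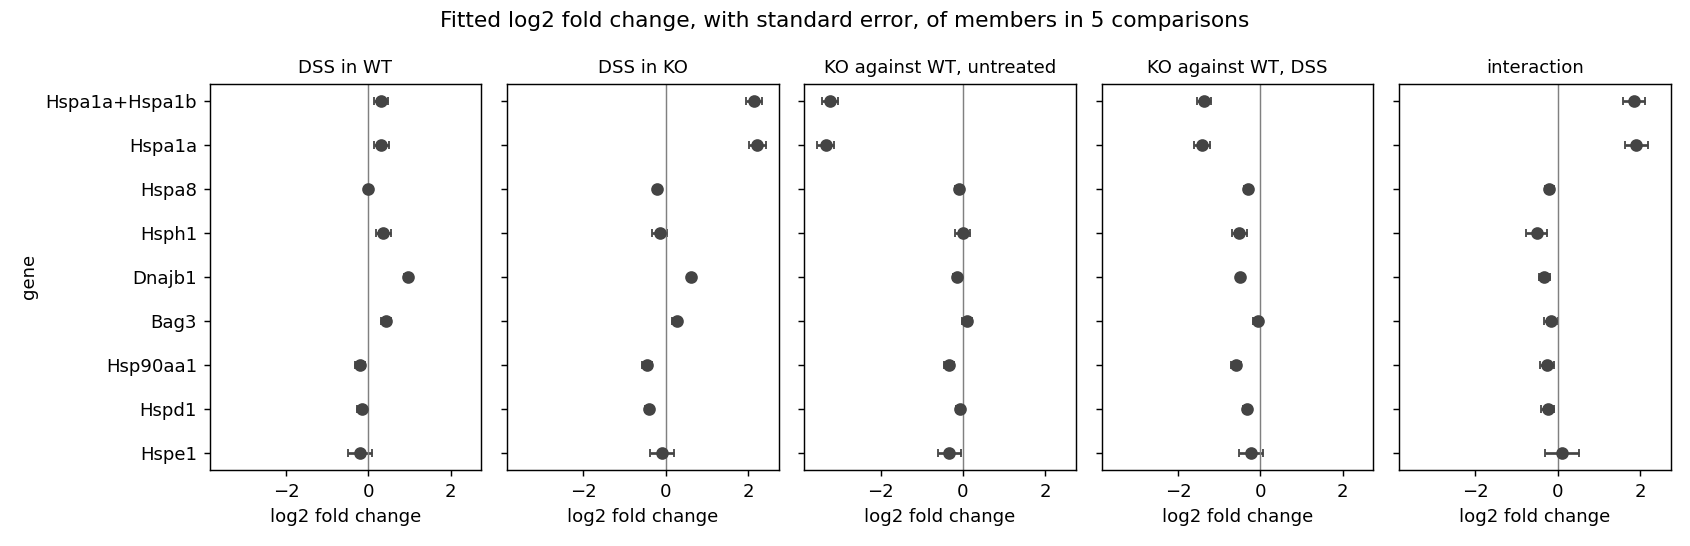
Fitted log2 fold change of the 8 members tested and of the Hspa1a and Hspa1b sum in 5 comparisons, from the edgeR fit over all 12 samples. Points are estimates and bars are standard errors, and the interaction is the DSS change in KO minus that in WT. Only Hspa1a and the sum lie beyond 1 in absolute value.

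Of the list, 8 of the 10 members passed the filter on low counts, and Hspa1b and Hspb1 did not. A gene was called when its adjusted edgeR p over all 12522 genes tested was under 0.05. For DSS in WT 2 of the 8 were called, Dnajb1 and Bag3, both higher, where 6.3% of all genes were called and 2.8% were called higher. For DSS in KO 4 were called, 2 higher (Hspa1a and Dnajb1) and 2 lower (Hsp90aa1 and Hspd1), where 3.92% of all genes were called, 1.88% higher and 2.04% lower, and 2 members with the replicate block. Between untreated genotypes the 1 called member was Hspa1a, lower in KO, where 3.48% of all genes were called and 1.76% lower. Under DSS 3 were called, Hspa1a, Dnajb1 and Hsp90aa1, all lower in KO, where 3.11% of all genes were called and 1.34% lower. The list was chosen with earlier results known, values of Hspa1a among them, so all these calls are counted here only as a description.

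Under DSS all 8 members had a lower estimate in KO than in WT, with a median log2 fold change of -0.40 against 0.003 over all genes. In 5 of them the groups did not overlap, Hspa1a, Hspa8, Dnajb1, Hsp90aa1 and Hspd1, against 10.6% of all genes with all 3 KO samples lower. For DSS in WT 3 members had all treated samples higher (Hspa1a, Dnajb1 and Bag3), against 10.7% of all genes. For DSS in KO the same 3 were higher and Hspa8, Hsp90aa1 and Hspd1 lower, against 12% and 12.3%. Untreated, Hspa1a and Dnajb1 were lower in KO without overlap, against 9.52%. The other medians were 0.15 for DSS in WT (0.006 over all genes), -0.12 for DSS in KO (0.015) and -0.13 between untreated genotypes (-0.002). In the interaction 1.7% of all genes were called and 1.17% higher. The 1 member past the threshold was Hspa1a, whose values led to the choice, so nothing is read from that count, and the median was -0.22. All members, not only Hspa1a, were chosen with earlier results of these samples known. The counts and medians above are therefore a description and not independent of that choice. The 4 comparisons of 2 groups share samples, so their values are set side by side only.

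The wider network was described with 10 lists of 101 chaperones, regulators and other heat-inducible genes that are not members, 86 of which were tested. Some of them, such as Atf3 and Ppp1r15a, are not chaperones. For DSS in WT 6 of the 86 were called, all higher, a share of 6.98% where 6.3% of all genes were called and 2.8% higher. For DSS in KO 3 were called higher and 2 lower, a share of 5.81% beside 3.92% of all genes. The 3 higher were Atf3, Ppp1r15a and Tcp11l2, all from the list of other heat-inducible genes. Over all genes 1.88% were called higher and 2.04% lower for DSS in KO. Under DSS 6 were called, all lower in KO, a share of 6.98% where 3.11% of all genes were called and 1.34% lower, with a median log2 fold change over the 86 of -0.13 against 0.003 over all genes. No gene of these lists was called in the interaction by edgeR, 11 had an unadjusted p under 0.05, and 2 passed in the DESeq2 test.

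Of the heat-shock factors and their regulators, Hsf1 and 3 other genes were tested, and edgeR called none in any comparison. None had an unadjusted p under 0.05 and none passed in DESeq2. The group means of Hsf1 ranged from 32.5 ± 4.03 CPM (untreated WT) to 37.9 ± 3.15 CPM (DSS-treated WT, SD, n = 3).

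Among the Hsp90 co-chaperones, 15 tested genes, edgeR called Stip1 and Ahsa1 lower in KO than in WT when both had DSS. Over all genes 1.34% were called lower there. Stip1, which hands clients from Hsp70 to Hsp90, was 113 ± 4.69 CPM (SD, n = 3) in WT and 76.0 ± 3.47 CPM in DSS-treated KO (log2 fold change -0.58, SE 0.11, adjusted edgeR p 0.0110). It was also lower under DSS than untreated in KO (-0.49, SE 0.11, adjusted edgeR p 0.0248), from 107 ± 11.3 CPM. The second call was lost when any KO sample was left out, and the first without KO replicate 2 or WT replicate 1 or 2 under DSS. Ahsa1, which stimulates the Hsp90 ATPase, was 92.8 ± 2.09 CPM in WT and 67.2 ± 5.18 CPM in DSS-treated KO (-0.47, SE 0.11, adjusted edgeR p 0.0370), a call lost in 11 of 18 alternatives, 9 of which left out 1 sample. The list's median log2 fold change was -0.20 there, -0.33 for DSS in KO and -0.07 for DSS in WT.

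Of 5 tested relatives of Hsp70 and Hsp110, edgeR called Hspa4l, an Hsp110. It rose under DSS in WT from 118 ± 5.00 to 172 ± 16.6 CPM (SD, n = 3, log2 fold change 0.54, SE 0.12, adjusted edgeR p 0.0165) and was 123 ± 16.3 CPM in DSS-treated KO, lower than in WT (-0.49, SE 0.12, adjusted edgeR p 0.0477). The first call was lost without untreated WT replicate 2 or WT replicate 1 or 3 under DSS, and the second in 9 of 18 alternatives. The 1 other small heat-shock protein tested, of 8 listed, was not called. None of 12 other J-domain genes, 8 genes of the BAG and exchange factor list and 10 other mitochondrial chaperones and proteases was called by edgeR in any comparison. In those 3 lists up to 3 genes per comparison had an unadjusted p under 0.05 and at most 1 passed in DESeq2. Of 8 subunits of TRiC, the chaperonin of the cytosol, Tcp1 was called lower under DSS in KO (-0.37, SE 0.09, adjusted edgeR p 0.0418), a call lost in 12 of 18 alternatives, and its adjusted p with the replicate block was 0.0694 (0.00695 to 0.170 over the alternatives).

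Of 12 tested genes in the endoplasmic reticulum list, edgeR called Hspa5, Calr and Hyou1 higher under DSS in WT. Over all genes 2.8% were called higher there. In KO none of the list was called under DSS, where 2 had an unadjusted p under 0.05 and 0 passed in DESeq2. Hyou1, an Hsp110 of that compartment, rose from 54.0 ± 7.78 to 88.04 ± 14.3 CPM (SD, n = 3) in WT (log2 fold change 0.70, SE 0.17, adjusted edgeR p 0.0209). It was 48.2 ± 5.78 CPM in DSS-treated KO, lower than in WT (-0.87, SE 0.17, adjusted edgeR p 0.0110). Calr, a lectin chaperone, was 525 ± 6.46 CPM in WT and 358 ± 17.4 CPM in DSS-treated KO (-0.55, SE 0.09, adjusted edgeR p 0.00343), a call kept in all 18 alternatives. The calls of Hyou1 were lost in 5 and 4 alternatives, and that of Hspa5 (0.41, SE 0.10, adjusted edgeR p 0.0202) in 4 of 18, in each case among them those without WT replicate 1 or 3 under DSS. The DSS changes of Hspa5, Calr and Hyou1 were not called different between genotypes in the interaction.

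Of 19 other heat-inducible genes tested, some of which are also on the lists above, edgeR called 3 higher under DSS in WT (Atf3, Ppp1r15a and Hspa4l). In KO 3 were called higher under DSS (Atf3, Ppp1r15a and Tcp11l2) and 1 lower (Stip1). Over all genes 2.8% were called higher in WT, and 1.88% higher and 2.04% lower in KO. Between genotypes under DSS 4 of the 19 were called, all lower in KO, where 1.34% of all genes were called lower. Atf3 and Ppp1r15a, which many kinds of stress induce, rose under DSS in both genotypes. Atf3, a transcription factor, rose by 1.30 in log2 in WT (SE 0.17, adjusted edgeR p 0.000244) and by 0.70 in KO (SE 0.17, adjusted edgeR p 0.0324). Ppp1r15a, which restores translation after stress, rose by 1.02 in WT (SE 0.13, adjusted edgeR p 0.000140) and by 0.71 in KO (SE 0.13, adjusted edgeR p 0.00516). Tcp11l2 rose in KO from 17.2 ± 0.719 to 41.3 ± 5.49 CPM (1.26, SE 0.21, adjusted edgeR p 0.00316). Of 14 immediate early genes, which also respond to tissue handling, 9 rose under DSS in WT and 6 in KO, where 2.8% and 1.88% of all genes were called higher. Untreated, 3 of the 14 were higher in KO, among them Nr4a1 (1.24, SE 0.22, adjusted edgeR p 0.00473) and Dusp1 (0.43, SE 0.10, adjusted edgeR p 0.0289), whereas Hspa1a was lower there. Between untreated genotypes 3.48% of all genes were called in either direction. Under DSS Zfp36 was lower in KO (-0.44, SE 0.10, adjusted edgeR p 0.0266). The calls of Dusp1 and Zfp36 were lost in 7 and 5 alternatives, and that of Nr4a1 with only the groups compared. The part of tissue handling in the chaperone differences was not tested.

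**Figure D4:**
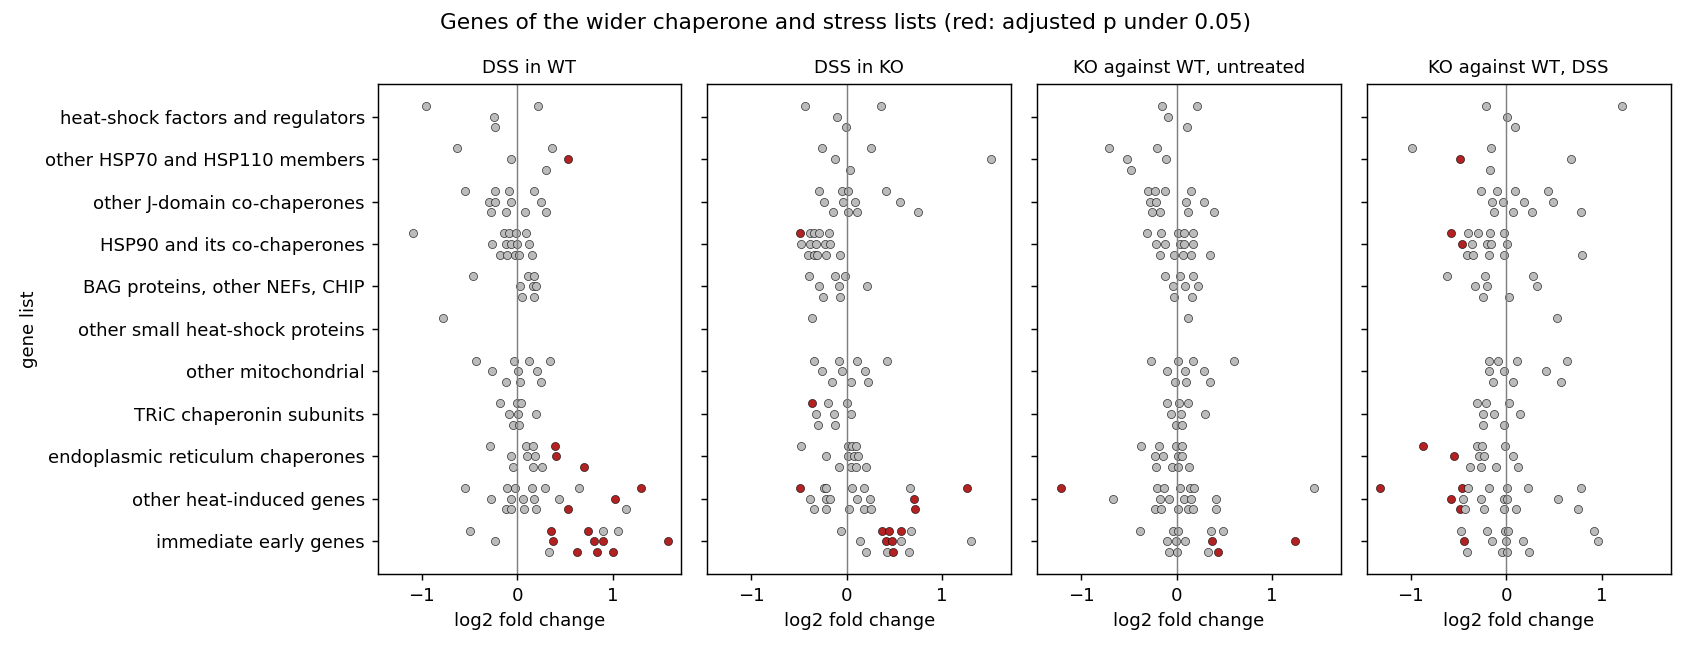
Log2 fold change of each tested gene of the 11 lists (10 chaperone and heat-inducible lists and the immediate early genes) in the 4 comparisons of 2 groups. Red points had an adjusted edgeR p under 0.05 over all genes, and grey points did not. The red points of KO against WT with DSS all lie below 0, and a gene on several lists appears in each.

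The genes whose pattern over the 12 samples was most like that of the Hspa1a and Hspa1b sum were sought among 8854 genes whose log2 CPM averaged 3 or more. The samples fall into 4 groups, so these correlations are a description and carry no p. Rsrp1 came first (Pearson r 0.958 over 12 samples), with means of 415 CPM in untreated WT, 416 in DSS-treated WT, 202 in untreated KO and 362 in DSS-treated KO. Insig1 (0.926), Aacs (0.916), Fam83e (0.914) and Trim26 (0.914) followed. All 5 had their lowest group mean in untreated KO, as the sum did, but none spanned as wide a ratio between its highest and lowest group mean. For the mean standardized level of the other 8 members, the closest were Yars (0.933), Bpgm (0.911), Upp1 (0.907), BC025446 (0.896) and Adck5 (0.893), all with the highest group mean in DSS-treated WT and the lowest in DSS-treated KO. These 8 are all members but Hspa1a and Hspa1b, and so not the 8 tested. They include Hspb1, too low to test, at equal weight. That mean also joins genes that moved in opposite directions under DSS in KO, such as Dnajb1 and Hsp90aa1.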

How the data were processed

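The values were whole-number counts of reads per gene in 12 samples, as the authors deposited them. Reads had been aligned with STAR 2.5.2b and counted with featureCounts 1.5.0 on GRCm38 (mm10), per the submitters' processing notes. The annotation release, the strand setting and the treatment of reads with several matches are not given in the sources used here. Libraries were made by a full-length SMART-seq method, per the labels' protocols. Gene IDs were matched without version to GENCODE M21 (46005 of 46517), which gave symbols, exon lengths and GRCm38 coordinates. Of 8 relatives of Hsp70 and Hsp110 listed, 7 matched a single ID.

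Counts were tested with edgeR 4.0.16 in R 4.3.3. The filterByExpr filter kept 12522 genes (99.8% of counts), libraries were scaled by TMM, the model had 1 coefficient per group in a single fit of 12 samples, and each contrast was put to the two-sided quasi-likelihood F test with Benjamini-Hochberg adjustment over all genes. CPM values divide counts by the TMM-scaled total of the genes kept, and log2 CPM used a prior count of 2. Intervals are 95% intervals of that fit. Replicates differed beyond sampling noise in every pair (chi-square per degree of freedom of 6.51 to 27.0). The floor of 3 counts allows for counting error alone, as PCR duplicates are not separate molecules. The script was tested on simulated counts with 200 changed genes. Promoter windows came from RefSeq.

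The members and lists were chosen with earlier results of these data known, so their calls and adjusted p values are a description and not independent evidence. Genes named from the lists were, in each list and contrast, up to 2 higher and 2 lower genes past the threshold with the largest fold, no overlap between groups and log2 CPM averaging 3 or more. Values of Hsf1 and of Atf3 in KO, outside that rule, were added after they were seen. The values of 1 gene of the lists are not reported here. Alternatives were DESeq2 size factors, the DESeq2 1.42.0 test, no low-count filter, at least 10 counts in every sample, only the groups compared, the replicate block and each sample left out. Replicate numbers from the titles were taken to pair samples where every same-numbered pair of deviations from group means correlated over 0.1 across genes, which held for DSS in KO (r of 0.203, 0.105 and 0.125) and in no other comparison. The block gave each replicate number an effect shared by all 4 groups, so it is not a pairing within KO alone. Same-numbered untreated WT and KO samples, which the block also ties, correlated at -0.175, -0.176 and -0.0544.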

Additional observations from a re-analysis of the deposited data

Results flagged for a closer look

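The DSS change of Hspa1a differed between genotypes, with 1.91 more on the log2 scale in KO than in WT (SE 0.28), and that of the Hspa1a and Hspa1b sum by 1.85 (SE 0.26). Both were flagged because the difference between the DSS changes of the 2 genotypes was itself past the threshold of the fit. The Hspa1a level was among the values that led to the choice of genes, so neither is independent evidence. Groups of 3 samples are too small for the check of single outlying samples.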

How the results depend on the processing

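Of 68 fold changes followed through the alternatives, 38 were called and 20 of these kept the call throughout. All reversals were of uncalled values near 0. Over omissions of 1 sample, log2 fold changes ran from -0.125 to 0.00684 for Bag3 between genotypes under DSS, from -0.0611 to 0.0507 for Hspa8 in DSS in WT, from -0.168 to 0.0308 for Hspd1 between untreated genotypes and from -0.0743 to 0.0631 for Hsph1 between untreated genotypes, which was 0.0101 with no filter and 0.0137 with only the groups compared. Hspe1 ran from -0.29 to 0.14 for DSS in KO, from -0.0837 to 0.346 in the interaction and from -0.409 to 0.0147 between genotypes under DSS. The members called numbered 1 for DSS in WT with size factors, no filter, only the groups compared or the replicate block, and 1 in every omission. For DSS in KO they numbered 2 with the block and 2 to 4 over omissions, and for genotypes under DSS 5 with only the groups compared and 1 to 4 over omissions. Genes called over the whole table, against 491 for DSS in KO, were 800 with the DESeq2 test, 776 with no filter and 235 to 710 over omissions. For DSS in WT, against 789, they were 467 with only the groups compared and 483 to 958 over omissions. For untreated genotypes, against 436, they were 790, 703 and 195 with DESeq2, no filter and only the groups compared, and 212 to 725, the highest without untreated WT replicate 3. Under DSS, against 390, they were 662 and 642 with DESeq2 and no filter, and 160 to 566. For the interaction, against 213, they were 368 and 356, and 152 to 350. The cause of these shifts was not tested. The replicate block ended the calls of Bag3 for DSS in WT, Hsp90aa1, Hspd1 and Tcp1 for DSS in KO, and Ahsa1 and Hspa4l between genotypes under DSS. It was not followed for Atf3 in DSS in KO or for Calr in DSS in WT. For DSS in WT 2 of the same-numbered pairs also correlated over 0.1 (r of 0.0145, 0.121 and 0.128 for replicates 1 to 3), and between genotypes none did. Library numbers of same-numbered untreated and DSS samples were adjacent in both genotypes. Depth limits Hspa1b, Hspb1 and Hspe1.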
